A study of Mus musculus with 84 samples.

Results

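Complement is a cascade of secreted proteins that tags microbes and damaged cells. The 8 complement genes described here are C3, C2, Cfb, C4b, C1qa, C1qb, C1qc and Serping1. They were taken by symbol from the 25494 genes of an RNA-seq count table and were selected on their RNA differences between recipient groups in these data, so their RNA differences, and the counts of them past a limit, are given as a description from which nothing is read. All 8 passed the filter on low counts, as did 15893 genes in all. The RNA-seq libraries came from male C57BL/6 mice that had been germ-free, were 6 weeks old at the first gavage, and received faecal bacteria 4 times a week for 5 weeks while eating a high-fat diet (HFD, 60% of energy from fat) or a low-fat diet (LFD, 10%). The bacteria came from male donors on the HFD (HFB) or the LFD (LFB), which gives the groups HFDHFB, HFDLFB, LFDHFB and LFDLFB, with 3 libraries each. All 4 groups were colonized, so no germ-free control enters the comparisons. ChIP-seq peak lists were available for the histone marks H3K27ac (active enhancers and promoters) and H3K4me1 (enhancers, active or poised) and for the transcription factor HNF4a. They covered male and female mice kept on either diet for 20 weeks (12 H3K27ac and 12 H3K4me1 libraries; HNF4a in 4 male libraries) and the same 4 kinds of recipient (11 H3K27ac libraries, 2 of them HFDHFB). RNA was taken from cells scraped off the colon and chromatin from epithelial cells shaken off in EDTA, so both readouts need not hold the same cells, and the sources used here do not state whether they came from the same mice.

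C1qa, C1qb and C1qc encode the 3 chains of C1q, the recognition protein that starts the classical pathway when it binds antibody on a surface. The active C1 complex cuts C4 (C4b) and C2 into the C3 convertase of the classical and lectin pathways, factor B (Cfb) supplies the catalytic part of the alternative-pathway convertase, and C3 is the protein on which all 3 routes converge. Serping1 encodes C1 inhibitor, which inactivates the C1r and C1s proteases. In most tissues C1q is made by macrophages, and C3 and factor B are made by many cells, epithelium among them.

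The letters that carry the chromatin findings are those of HNF4a peaks near Cfb, C3 and Serping1 that at least 3 of 4 libraries had. They are shown because HNF4a is a transcription factor of intestinal and liver epithelium. A peak nearer to the start site of C3, in 1 of 4 libraries, is not printed. For C3 and Serping1 the stretch is the one shared by the peaks of all libraries that had one. The Cfb peak holds a start site. Its stretch runs from the upstream end of the outermost peak to 30 bases after the outermost annotated start site. Its label therefore counts libraries with a peak there, not shared bases. All are in mm9, written 5′ to 3′ on the minus strand, from which all 8 genes are transcribed. Capitals mark matches to the HNF4 core CAAAGNNCA, searched on both strands.
Cfb start site, chr17:34999434-34999583, shared by 4 of 4 libraries: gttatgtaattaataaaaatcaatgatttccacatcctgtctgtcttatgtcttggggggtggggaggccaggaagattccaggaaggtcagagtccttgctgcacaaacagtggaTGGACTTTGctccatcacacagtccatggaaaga
C3 upstream, chr17:57373750-57373938, shared by 3 of 4 libraries: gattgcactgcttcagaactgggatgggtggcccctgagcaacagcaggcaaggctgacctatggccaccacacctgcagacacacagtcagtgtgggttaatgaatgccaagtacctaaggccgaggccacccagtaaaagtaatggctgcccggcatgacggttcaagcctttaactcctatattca
Serping1 downstream, chr2:84596524-84596689, shared by 3 of 4 libraries: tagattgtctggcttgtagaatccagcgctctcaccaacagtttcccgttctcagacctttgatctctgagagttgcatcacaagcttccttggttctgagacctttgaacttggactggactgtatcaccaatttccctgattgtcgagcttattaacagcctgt
The Cfb stretch held 1 match, on the opposite strand, and the C3 and Serping1 stretches held 0. Of 22639 peaks of the library HFD male 1, trimmed to the same lengths, 24.3% (150 bp), 25.2% (166 bp) and 26.3% (189 bp) held a match. These stretches are HNF4a peaks themselves, so their share cannot tell whether a match is a bound site. The match is given as a description, and binding to it was not tested.

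Promoter sequence of 3 of the 8 genes was in the RefSeq table (GRCm38.p6), and it is shown because C3 and the C1q genes are set against each other in the results. The first 250 letters lie before the start site and the last 30 after it, on the minus strand. Capitals in C3 mark a C/EBP core (TTGCNNAA, 1 match) and an NF-kB core (GGGA, any 4 letters, CC, 3 matches), which did not overlap each other. The middle NF-kB match in C3 is on the opposite strand. Neither core was marked in C1qb and C1qc. The NF-kB core also occurs there, for instance as gggatagtcc in C1qb and, on the opposite strand, as gggctctccc in C1qc. Capitals in C1qb and C1qc mark the ETS core AGGAAGT, chosen after the letters had been seen and present here on the opposite strand.
C3, chr17:57228107-57228386: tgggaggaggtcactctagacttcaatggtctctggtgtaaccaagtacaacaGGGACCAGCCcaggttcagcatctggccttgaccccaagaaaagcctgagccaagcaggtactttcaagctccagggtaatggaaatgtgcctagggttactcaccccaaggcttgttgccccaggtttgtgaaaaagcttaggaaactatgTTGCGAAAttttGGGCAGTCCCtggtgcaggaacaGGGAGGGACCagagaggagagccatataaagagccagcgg
C1qb, chr4:136886171-136886450: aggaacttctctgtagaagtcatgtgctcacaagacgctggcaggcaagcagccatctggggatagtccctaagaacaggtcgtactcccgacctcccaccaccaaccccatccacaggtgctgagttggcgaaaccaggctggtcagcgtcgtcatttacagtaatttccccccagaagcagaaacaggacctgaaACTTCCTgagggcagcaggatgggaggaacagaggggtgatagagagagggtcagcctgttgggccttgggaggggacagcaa
C1qc, chr4:136892885-136893164: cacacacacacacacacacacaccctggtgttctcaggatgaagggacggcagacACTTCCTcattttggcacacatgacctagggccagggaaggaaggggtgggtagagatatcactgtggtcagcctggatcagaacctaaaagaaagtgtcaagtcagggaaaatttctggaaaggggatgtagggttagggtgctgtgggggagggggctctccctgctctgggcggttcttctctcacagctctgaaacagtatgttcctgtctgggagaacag
Of 32851 promoter windows in the table, 10.4% held the C/EBP core, 19.4% the NF-kB core and 8.65% the ETS core, on either strand. No HNF4 core, which 6.04% of the promoters held, lay in these 3 windows.

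The counted reads per RNA-seq library ranged from 39904191 to 48026846. Levels are given as CPM, the reads of a gene relative to all counted reads of its library after TMM scaling, and between genes only as CPM per kb of exon. The libraries HFDLFB 1, HFDLFB 2 and LFDLFB 3 stood apart. They had the highest summed level of 7 mesothelium markers (208 to 505 CPM, against 49.7 to 131 in the other 9). Mesothelium is the layer of cells that covers the outside of the gut. These 3 libraries were also the highest in 8 fibroblast markers (929 to 1350 CPM, against 341 to 676 in the others). The same was so for 8 macrophage markers (116 to 138 CPM, against 51.3 to 96.8). The same 2 HFDLFB libraries also had the highest summed level of 8 adipocyte markers (1190 and 2630 CPM, against 186 to 985 in the others), and HFDLFB 3 had 599 CPM of pancreatic acinar markers, against 6.48 to 22.1 elsewhere. Epithelium markers were at 9410 to 18100 CPM in every library. In bulk RNA, fewer cells of a type and less RNA per cell cannot be told apart.

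C3, the component shared by all routes, had the highest mean and the widest range of the 8 genes per length of exon. Its mean over the 12 libraries was 126 CPM per kb, with a 25.4-fold range from 20.8 to 527. Cfb had a mean of 76.1 CPM per kb, Serping1 of 33.8, C1qb of 29.9, C1qa of 26.3, C1qc of 12.6, C2 of 4.91 and C4b of 4.63. Every pair of neighbours in this order overlapped over the libraries. The place of C3 rests on the LFB groups: it was above Cfb in HFDLFB (297 against 93.8 CPM per kb) and LFDLFB (101 against 75.2), but Cfb was above C3 in HFDHFB (59.1 against 36.1 CPM per kb) and LFDHFB (76 against 70.1). C2 varied 10.8-fold, C4b 5.82-fold and Serping1 4.81-fold. Cfb varied 2.56-fold, and the C1q genes varied 2.21- to 2.69-fold.

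C3 (chr17:57343390-57367559 in mm9, as are the loci that follow) stood at 122, 107 and 327 CPM in HFDHFB and at 1380, 2700 and 493 CPM in HFDLFB. In LFDHFB it stood at 328, 359 and 391 CPM, and in LFDLFB at 254, 267 and 1040 CPM. All HFDHFB libraries lay below all HFDLFB and all LFDHFB libraries, while the LFD-fed groups overlapped. In HFDLFB 2, C3 was the gene with the 16th highest count and took 0.28% of all counted reads, whereas in HFDHFB 1 and 2 it ranked 1830 and 1911. The group means were 185 ± 123 CPM in HFDHFB and 1530 ± 1110 in HFDLFB (SD, n = 3), a fitted difference of −3.04 ± 0.72 (log2, SE), or 8.23-fold.

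C2 (chr17:34999547-35019045) stood at 5.92, 5.72 and 9.93 CPM in HFDHFB and at 45, 62.1 and 15.2 CPM in HFDLFB. It stood at 17.4, 14.1 and 13.4 CPM in LFDHFB and at 11.8, 8.72 and 30 CPM in LFDLFB. As with C3, the HFDHFB libraries lay below every library of HFDLFB and LFDHFB, and the highest library of each LFB group was also the one highest in C3. The fitted difference between HFDHFB and HFDLFB was −2.5 ± 0.54 (log2, SE), or 5.67-fold. C2 ends 87 bp from the start site of Cfb on the same strand, and whether reads were counted by strand is not given in the sources used here.

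Cfb (chr17:34993319-34999459) stood at 202, 149 and 150 CPM in HFDHFB and at 193, 346 and 257 CPM in HFDLFB. The LFD-fed libraries spanned 135 to 300 CPM. Cfb overlapped in every pair of groups, and its fitted difference between HFDHFB and HFDLFB was −0.67 ± 0.29 (log2, SE), although Cfb and C2 are adjacent genes.

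C4b (chr17:34865326-34880842), the C4 gene of the classical and lectin convertase, stood at 10.7, 24 and 14.9 CPM in HFDHFB and at 44.6, 62 and 15.1 CPM in HFDLFB. It stood at 25.7, 24 and 18.5 CPM in LFDHFB and at 14.7, 16.6 and 45.6 CPM in LFDLFB. HFDLFB 3 lay within the range of HFDHFB, so these groups overlapped, and the fitted difference was −1.3 ± 0.53 (log2, SE). C4b has a near-identical copy, C4a, which had 3 to 17 counted reads per library, so how the reads divide between both is uncertain.

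Serping1 (chr2:84605517-84615586), which encodes the inhibitor of C1, stood at 38.8, 52.1 and 58.2 CPM in HFDHFB and at 164, 187 and 56 CPM in HFDLFB. It stood at 65.4, 57.1 and 59.5 CPM in LFDHFB and at 42.1, 60.5 and 103 CPM in LFDLFB. HFDHFB and HFDLFB overlapped through HFDLFB 3, and the fitted difference was −1.45 ± 0.41 (log2, SE), or 2.73-fold.

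The C1q genes lay side by side in the order C1qb (chr4:136436061-136442092), C1qc (chr4:136445717-136448829) and C1qa (chr4:136451831-136454759). C1qb, the most abundant of them per length, stood at 27.2, 43.9 and 30.9 CPM in HFDHFB, 50.4, 37.8 and 18.7 in HFDLFB, 37.2, 20.4 and 20.7 in LFDHFB, and 32.6, 24.9 and 45.2 in LFDLFB. C1qa ranged from 17.3 to 38.2 CPM over the 12 libraries and C1qc from 14.4 to 36.7, and all 3 were lowest in HFDLFB 3. The differences between HFDHFB and HFDLFB were 0.1 ± 0.27 for C1qa, −0.07 ± 0.37 for C1qb and −0.05 ± 0.32 for C1qc (log2, SE), smaller than their standard errors. Over the 12 libraries the log2 levels of the C1q genes correlated with each other at r = 0.97 to 0.98, with C3 at 0.18 to 0.29 and with C2 at 0.26 to 0.39. After the group means were subtracted, r was 0.46 to 0.49 with C3, 0.68 to 0.71 with C2 and 0.81 to 0.86 with C4b, a description over 12 libraries that also differ in the cell type markers given below.

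**Figure D1:**
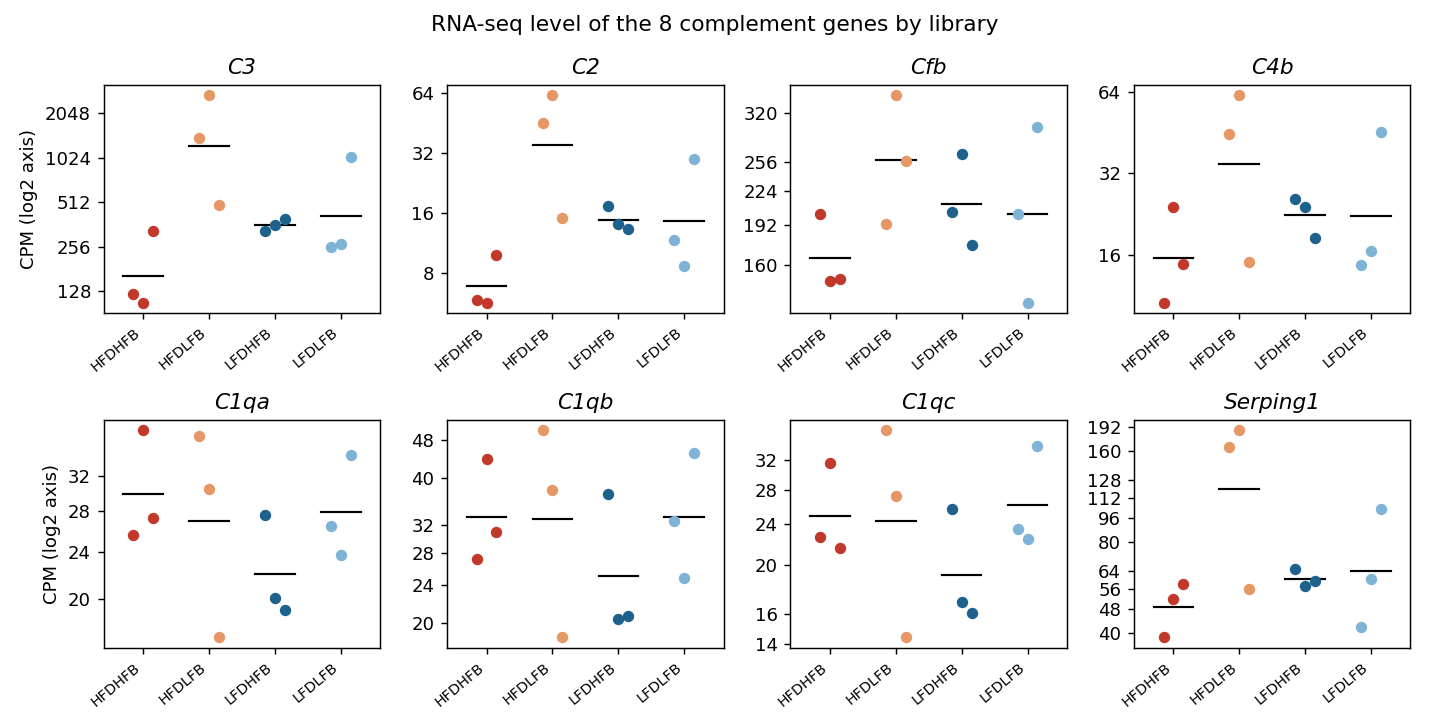
RNA-seq level of each complement gene in the 12 recipient libraries (y axis, CPM on a log2 axis with its own range in each panel; 1 point per library, line at the mean of log2 values) by group. C3 and C2 are lower in every HFDHFB library than in every HFDLFB and LFDHFB library, while C1qa, C1qb and C1qc overlap in all pairs of groups.

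Between donors in HFD-fed recipients, edgeR's quasi-likelihood test gave 0 of the 8 genes, and 0 of 15893 genes (0%), at an adjusted p of 0.05, whereas 1441 genes (9.07%) had an unadjusted p under 0.05. Of the 8 genes, 5 (C3, C2, Cfb, C4b and Serping1) were among the 670 genes that were lower in HFDHFB at this unadjusted limit (4.22% of all genes). DESeq2, the tool named in the study's methods, called C3 and C2 among 80 genes (0.487%) at an adjusted p of 0.05, and Serping1 as well at an unadjusted p of 0.001 (0.859% of all genes). C3 and C2 were also the 2 of 8 genes whose HFDHFB libraries all lay below the HFDLFB libraries, as was so for 4.9% of all genes, and 0 of the 8 lay wholly higher (8.11% of all genes). The median difference of the 8 genes was −0.98 (log2, 7 of 8 below 0), beside −0.002 over all genes.

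Between donors in LFD-fed recipients, 0 of the 8 genes had an unadjusted p under 0.05, beside 3.72% of all genes, and 0 of all genes had an adjusted p of 0.05 or less by edgeR or DESeq2. The differences between LFDHFB and LFDLFB lay between −0.53 ± 0.67 (C3) and 0.02 ± 0.29 (Cfb) (log2, SE). Each was smaller than 1.5 times its standard error. None of the 8 separated these groups, beside 5.57% of all genes that lay wholly lower in LFDHFB and 5.25% wholly higher. LFDLFB 3 stood apart in C3 (1040 CPM) from the other 5 libraries (254 to 391 CPM), and without it the difference of C3 was 0.47, with the sign turned.

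The same fit gave the diet comparisons and the interaction, which share libraries with the donor comparisons and are not separate evidence. Between diets with HFB, C3 differed by −0.96 ± 0.68 and C2 by −1.06 ± 0.52 in HFDHFB against LFDHFB (log2, SE), and these were the 2 genes whose HFDHFB libraries all lay lower (3.55% of all genes did so, and 7.47% lay wholly higher). None of the 8 had an unadjusted p under 0.05 there, beside 7.46% of all genes. Between diets with LFB, C3 differed by 1.55 ± 0.69, C2 by 1.27 ± 0.52 and Serping1 by 0.98 ± 0.41 in HFDLFB against LFDLFB (log2, SE), and these 3 were among the 3.57% of all genes that were higher at an unadjusted p under 0.05 (5.33% in either direction). These values depend on the libraries that stood apart. Without HFDLFB 2 they were 0.86 for C3, 0.85 for C2 and 0.69 for Serping1, and without LFDLFB 3 they were 2.58, 2.01 and 1.43. None of the 8 separated these groups, beside 6.62% of all genes that lay wholly lower and 5.09% wholly higher. In the interaction, the donor difference in HFD-fed minus that in LFD-fed recipients, C3 stood at −2.51 ± 0.96, C2 at −2.33 ± 0.74 and Serping1 at −1.27 ± 0.57, 3 of 8 genes beside the 4.95% of all genes that were lower at that limit (11.3% in either direction), and C1qa, C1qb and C1qc stood at 0.33 to 0.44. The interaction of C3 was −1.8 without HFDLFB 2 and −3.55 without LFDLFB 3, and that of C2 was −1.89 and −3.09. With edgeR, 0% of all genes had an adjusted p of 0.05 or less in each of these 3 comparisons.

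**Figure D2:**
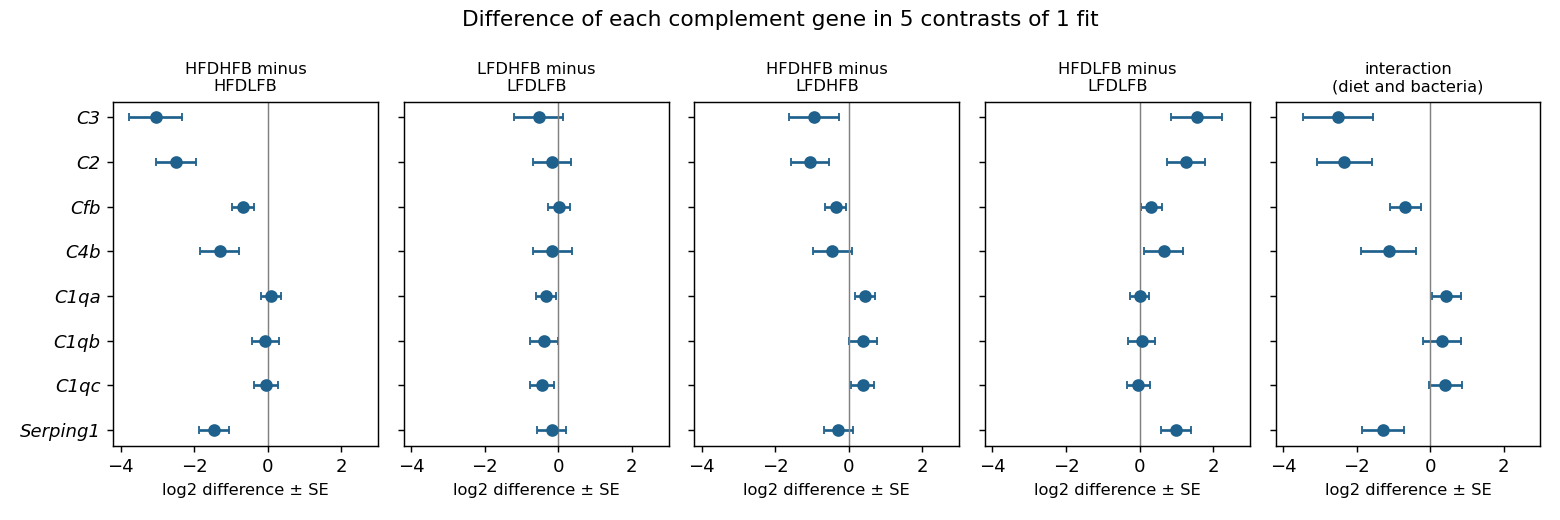
Fitted log2 difference of each complement gene (x axis, point with SE bar) in 5 comparisons of 1 edgeR fit that share libraries. C3 and C2 lie furthest from 0 in HFDHFB against HFDLFB, and the C1q genes lie within 0.45 of 0 in every comparison.

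Markers of several other cell types differed between HFDHFB and HFDLFB as well. All 7 mesothelium markers were lower in HFDHFB than in HFDLFB (median −2.37 on the log2 scale, 7 of 7 with an unadjusted p under 0.05), and their sum was 49.7, 54 and 102 CPM in HFDHFB and 405, 505 and 97.5 CPM in HFDLFB. All 8 adipocyte markers were lower (median −2.83, 6 with an unadjusted p under 0.05). The 8 macrophage markers, with C1q left out, were all lower as well, by less (median −0.45, 1 with an unadjusted p under 0.05), and their sum ranged from 51.3 to 138 CPM. Endothelium markers were lower in 8 of 8 (median −0.57, 2 with an unadjusted p under 0.05) and fibroblast markers in 6 of 8 (median −0.2). Smooth muscle markers went the other way, with 0 of 8 below 0 (median 0.76). The ratio of C3 to the summed mesothelium markers varied 2.72-fold over the 12 libraries, from 1.97 to 5.36, compared with 25.4-fold for C3 itself. That of C2 varied 2.13-fold and that of Serping1 2.61-fold, whereas the ratio varied 4.03-fold for C4b, 8.55-fold for Cfb and 10.8- to 11.7-fold for the C1q genes. The C1q genes correlated with the summed mesothelium markers at r = 0.39 to 0.49 (log2 levels). After the group means were subtracted, r was 0.72 to 0.73 for the C1q genes. It was then 0.85 to 0.96 for C3, C2, C4b and Serping1 and 0.26 for Cfb. With the summed fibroblast markers, this r was 0.7 to 0.92 for C3, C2, C4b and Serping1. It was 0.64 to 0.73 for the C1q genes and 0.12 for Cfb. With the summed macrophage markers, the values were 0.48 to 0.71, 0.63 to 0.69 and 0.68, in the same order.

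Including the summed mesothelium level as a covariate left a difference between HFDHFB and HFDLFB of −0.81 for C3, −0.67 for C2, −0.39 for Cfb, 0.06 for Serping1 and 0.49 for C4b (log2). Without the 3 libraries highest in these markers, 1 HFDLFB library (HFDLFB 3) is left, which the fit assumes to vary like the other groups, and the values were −1.41 for C3, −1.09 for C2, −0.63 for Cfb, −0.18 for Serping1 and 0.12 for C4b. For the C1q genes, 0.83 to 0.94 was left with the covariate and 0.81 to 0.86 without the 3 libraries. Both alternatives were chosen after seeing the data. The 3 libraries were also the highest in fibroblast and macrophage markers, so these cell types cannot be told apart from mesothelium here. Leaving out single libraries gave −3.78 (without HFDHFB 3) to −2.34 (without HFDLFB 2) for C3 and −2.89 to −2.07 for C2. The part of these cells in the differences was not tested further.

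**Figure D3:**
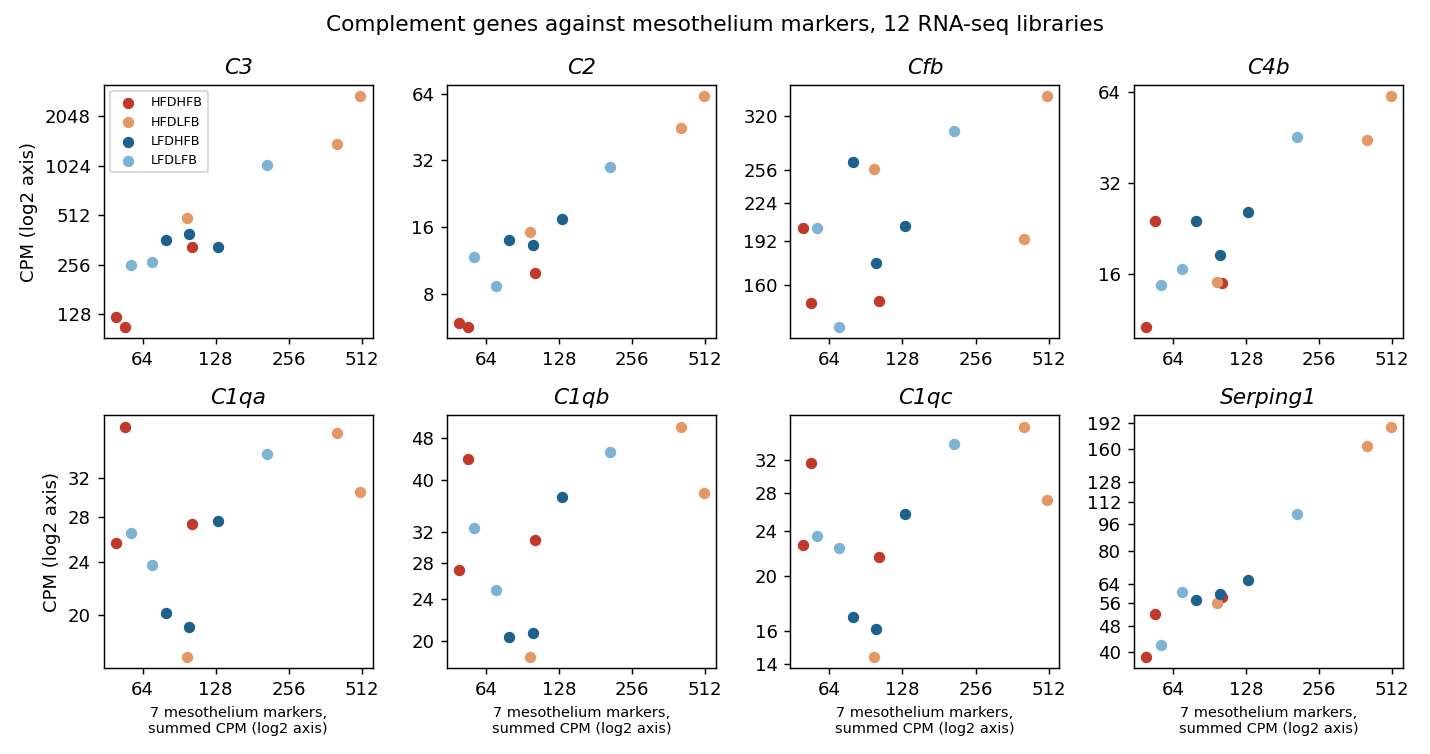
Level of each complement gene (y axis, CPM, log2 axis with its own range in each panel) against the summed CPM of 7 mesothelium markers (x axis, log2 axis), 1 point per library, coloured by group. C3, C2, C4b and Serping1 are highest in the 3 libraries above 200 CPM of markers. For each C1q gene, the 3 highest libraries are HFDLFB 1 and LFDLFB 3, both above 200 CPM of markers, and HFDHFB 2, at 54 CPM.

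The genes whose levels lay nearest to each complement gene over the 12 libraries fell into kinds that differed between members. These are correlations of log2 CPM within one set of libraries, given as a description. Slpi, which encodes a secreted protease inhibitor, was nearest to C3 (r = 0.978, Spearman's rho 0.944, n = 12). The r was 0.975 without the 2 libraries furthest from the median and 0.953 after the group means were subtracted. Bnc1, one of the mesothelium markers, came next for C3 (r = 0.967) and first for C2 (r = 0.974), where Amotl2 followed (r = 0.973). Gpc3 and Prss12 were nearest to Serping1 (r = 0.977 and 0.974). For C1qb and C1qc the nearest gene was Fcgr3, an Fc receptor of myeloid cells (r = 0.945 and 0.941), and for C1qa it was Fcgr2b, another Fc receptor (r = 0.926). C4b was nearest to Csf1r, the receptor of the macrophage growth factor (r = 0.943), followed by Ntng2 (r = 0.931). With summed marker lists, C4b correlated at r = 0.67 for macrophage, 0.87 for mesothelium and 0.86 for fibroblast. Cfb was nearest to Camsap2 (r = 0.95).

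Beside the 8 genes, 44 other complement genes were listed by role, of which 34 passed the filter. With edgeR, 0 of the 34 had an adjusted p of 0.05 or less in any of the 5 comparisons. Between donors in HFD-fed recipients their median difference was −0.4 (log2), with 22 of 34 below 0, and 6 of them were lower at an unadjusted p under 0.05, as were 4.22% of all genes. DESeq2 called C1ra among 2 of them at an adjusted p of 0.05. The genes described next were named after their values were seen. C1ra and C1s, the proteases of C1 that C1 inhibitor blocks, lay lower in every HFDHFB library than in every HFDLFB library. In all, 7 of the 34 did so, beside 4.9% of all genes, and 1, Hc, lay wholly higher, beside 8.11%. Hc had 0 to 27 counted reads per library, so few reads decide its place. C1ra stood at 11.2, 13 and 11.7 against 31.9, 49 and 18.7 CPM (−1.47 ± 0.36; edgeR adjusted p = 0.495), and C1s at 30.2, 35 and 37.9 against 87.4, 144 and 41.9 CPM (−1.41 ± 0.4; edgeR adjusted p = 0.495). Cfd, the factor D protease known from adipose tissue, varied from 1.36 to 48.7 CPM in HFDHFB and from 35.9 to 496 CPM in HFDLFB (−3.32 ± 1.4; edgeR adjusted p = 0.523). The membrane-bound regulators Cd55 (53.3 to 110 CPM) and Cr1l (76.1 to 102 CPM) differed by −0.38 ± 0.25 and 0 ± 0.14.

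The lectin-pathway genes Mbl1, Mbl2 and Fcnb had 0 reads in every library. Between donors in LFD-fed recipients the median of the 34 genes was 0.05, with 1 gene, C9, higher at an unadjusted p under 0.05 (2.01% of all genes were). With LFB, 8 of the 34 were higher in HFDLFB than in LFDLFB at this limit (among them C1ra, C1s, Cfd, C6 and C9, median 0.33), beside 3.57% of all genes. C9 had 15 to 85 counted reads per library and C6 had 1 to 41, so few reads decide their differences. Between HFDHFB and LFDHFB, 0 of 34 had an unadjusted p under 0.05, beside 7.46% of all genes.

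The ChIP-seq lists hold positions and no height, so what could be compared was the presence of a peak and the share of a window, the gene locus extended by 10 kb, that peaks covered. C2 and Cfb were taken as 1 window and the C1q genes as another, which gives 5 loci. H3K27ac peaks lay in the C3 window and in the C2 and Cfb window in 23 of 23 libraries, and in the windows of C4b, C1q and Serping1 in 0 of 23. Lists of this kind record peaks that passed the caller's limit, so 0 peaks is not a level of 0.

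Windows without any H3K27ac peak were uncommon for genes at these RNA levels. Among genes within 0.5 (log2 CPM) of each gene's mean level, 1.59% for C4b, 1.41% for C1qa, 1.2% for C1qb, 1.57% for C1qc and 0.451% for Serping1 had no peak in any of the 23 libraries (1.59% being 35 of 2198 genes), as against 7.43% of all 15864 expressed genes. By list, 0 of 8 epithelium marker genes lacked a peak, whereas 2 of 8 macrophage, 4 of 8 fibroblast, 4 of 8 endothelium, 2 of 7 mesothelium and 2 of 8 adipocyte marker genes did. So did 2 of 8 markers of other leukocytes, 2 of 6 hepatocyte, 1 of 8 smooth muscle and 0 of 3 pancreatic acinar markers. Of the smooth muscle markers, 5 of 8 had a peak in every library. Of the other complement genes, Cfd, Cfp and C3ar1 had a peak in 0 of 23 libraries, and Cd55 and Cr1l in 23 of 23. The complement receptor genes Itgam, Itgax and Itgb2 also had one in 23 of 23. Of the 8 receptor genes, 3 had no peak in any library and 4 had one in every library. The ChIP-seq reads kept were those that aligned uniquely.

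At C3, the H3K27ac peak common to 23 of 23 libraries lay upstream of the gene, in chr17:57370401-57376800, centred 6.04 kb from the start site. The HNF4a peak printed above lay within it, 6.29 kb upstream, in 1 of 2 HFD and 2 of 2 LFD libraries. A nearer HNF4a peak, 5.08 kb upstream, was found in 1 LFD library. The start site of C3 itself had an H3K27ac peak within 1000 bp in 0 of 12 libraries of the long-term diets and in 3 of 11 recipient libraries, 2 LFDHFB and 1 LFDLFB. H3K4me1 peaks covered 22.2 to 34.4% of the C3 window and lay at the start site in 10 of 12 libraries.

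At C2 and Cfb, the start site of Cfb had H3K27ac within 1000 bp in 23 of 23 libraries, H3K4me1 in 12 of 12 and HNF4a in 4 of 4. The HNF4a peak was centred 1 bp from the start site. The start site at the 5′ end of the C2 locus had H3K27ac in 5 of 23 libraries, H3K4me1 in 12 of 12 and HNF4a in 0 of 4. Other annotated start sites of C2 lay in H3K27ac regions found in 23 of 23 libraries, chr17:34995001-35002200, which also holds the start site of Cfb, and chr17:35028201-35032800, which also holds that of Zbtb12. Counting the 5′ start site of each locus alone, Cfb was the one gene of the 8 with H3K27ac, H3K4me1 and HNF4a there in every library.

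H3K4me1 peaks in the C1q window were present in 12 of 12 libraries and covered 1.55 to 21.2% of it, at places that changed from library to library. They lay at the start site of C1qa in 4 of 12. Serping1 had H3K4me1 in 6 of 12 windows, all downstream of the gene, and a downstream HNF4a peak in 3 of 4 libraries, 19 kb from its start site. C4b had neither, with 0 of 12 and 0 of 4 libraries. As only uniquely aligned reads were kept and C4a is a near-identical copy, peaks at C4b may have been lost. This was not tested.

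**Figure D4:**
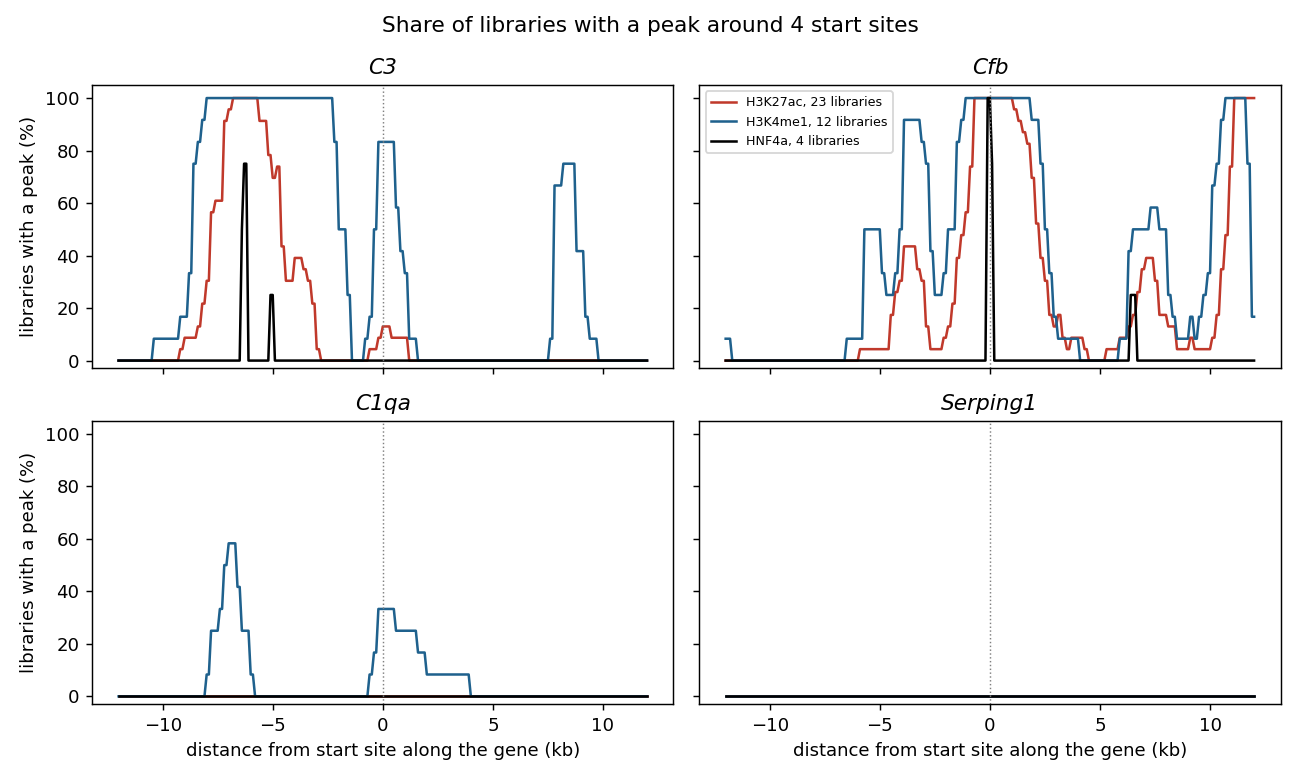
Share of libraries with a peak (y axis, %) by distance from the start site (x axis, kb, positive into the gene) for C3, Cfb, C1qa and Serping1. At Cfb all 3 lines reach 100% at the start site, at C3 the H3K27ac line reaches 100% upstream, and at C1qa and Serping1 the H3K27ac line stays at 0.

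The share of each window covered by peaks was compared between groups by two-sided exact permutation tests within strata. Between long-term diets, H3K27ac covered 9.21 ± 1.27% of the C3 window on the HFD and 7.32 ± 2.52% on the LFD (SD, n = 6; exact permutation test within sex, p = 0.18, adjusted p = 0.18 over 2 loci). It covered 15.9 ± 2.87% and 18.5 ± 3.57% of the C2 and Cfb window (SD, n = 6; exact permutation test, p = 0.155, adjusted p = 0.18). Both differences were smaller than the sum of the SDs, and the design could reach a p of 0.005.

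H3K4me1 covered 26.2 ± 5.13% of the C2 and Cfb window on the HFD and 30.7 ± 2.84% on the LFD (SD, n = 6; exact permutation test within sex, p = 0.05, adjusted p = 0.2 over 4 loci). In males the HFD libraries stood at 19.2, 22.8 and 24.5% and the LFD libraries at 27.7, 32 and 28%, without overlap, while the female groups overlapped, with a difference of −1.93 points. At C3 the difference in H3K4me1 was −2.02 points, at C1q 1.78 and at Serping1 1.55 (exact permutation tests, p = 0.435, 0.62 and 0.44). By sex, C3 differed by −5.25 points in females, where the groups did not overlap, and by 1.21 points in males, and Serping1 by −0.443 and 3.55 points.

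In recipients, HFDHFB and HFDLFB, the donor contrast in which C3 and C2 RNA differed most, overlapped in H3K27ac coverage. Coverage holds no peak height, and RNA and chromatin need not come from the same cells, so the 2 readouts cannot be set against each other directly. H3K27ac covered 4.98 and 7.24% of the C3 window in HFDHFB and 8.15, 7.24 and 6.79% in HFDLFB. It covered 17.1 and 28.4% of the C2 and Cfb window in HFDHFB and 25.9, 18.8 and 19.3% in HFDLFB. As the mean of the differences within each diet, HFB and LFB recipients differed by −1.17 points at C3 and by 0.534 points at C2 and Cfb, where the diets went opposite ways (1.39 points on the HFD and −0.324 on the LFD) (exact permutation tests within diet, p = 0.27 and 0.86, adjusted p = 0.54 and 0.86 over 2 loci). Between diets, H3K27ac covered 6.88 ± 1.17% of the C3 window in 5 HFD-fed and 9.28 ± 1.89% in 6 LFD-fed recipients (SD; exact permutation test within donor, p = 0.055, adjusted p = 0.095). With 25 kb on either side, the difference at C3 was −0.382 points, in place of −2.53. For C2 and Cfb these were 21.9 ± 4.96% and 16.2 ± 4.39%, the opposite direction (exact permutation test, p = 0.095, adjusted p = 0.095). These 11 libraries allow 200 permutations, so p moves in steps of 1 in 200.

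**Figure D5:**
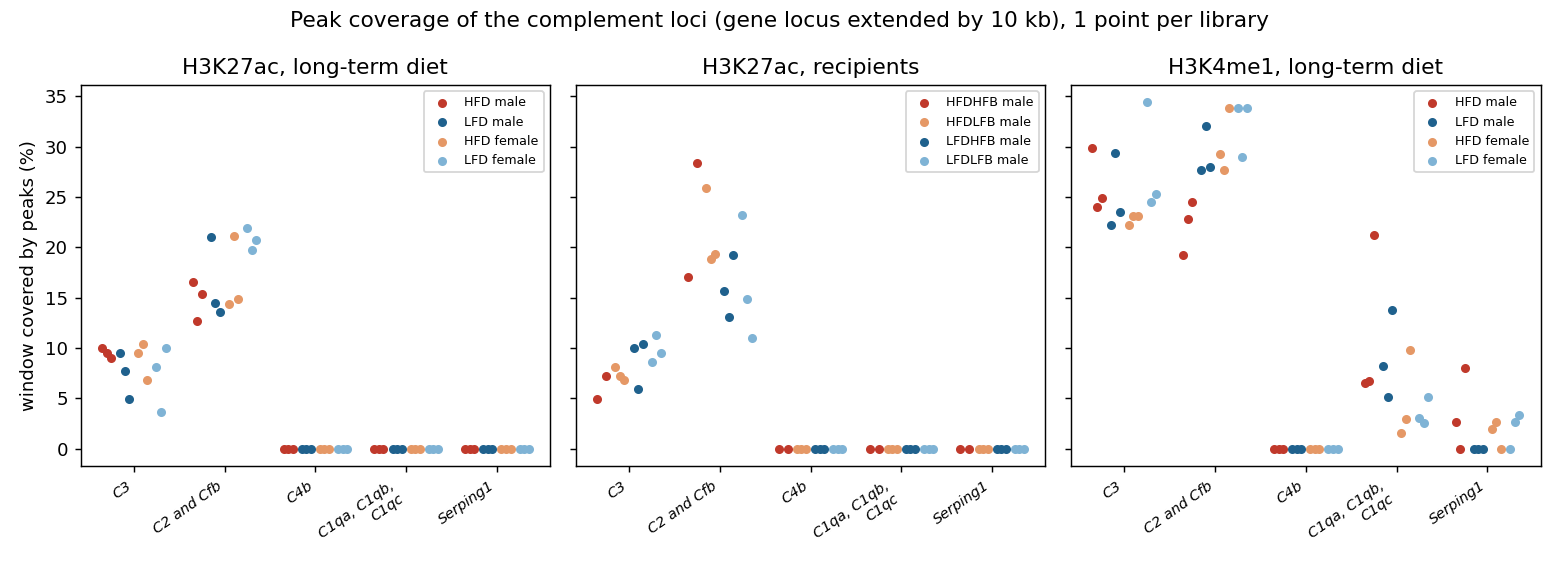
Share of each complement window (gene locus with 10 kb on either side) covered by peaks (y axis, %) by locus (x axis), 1 point per library, for H3K27ac in long-term diets and recipients and for H3K4me1 in long-term diets. H3K27ac is at 0 in C4b, C1q and Serping1 in every library, and H3K4me1 reaches C1q in all 12.

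Regions found by merging the peaks of 2 groups were also scored as present throughout one group while absent throughout the other. In the complement windows, 0 regions of 8 to 18 met this rule in each of 8 comparisons. Over all merged H3K27ac regions it was met by 0.648% between long-term diets in males and 0.901% in females, by 1.68% for HFDHFB against HFDLFB, 0.674% for LFDHFB against LFDLFB, 3.08% for HFDHFB against LFDHFB and 1.19% for HFDLFB against LFDLFB, and over H3K4me1 regions by 0.55% in males and 0.68% in females.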

How the data were processed

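RNA-seq was measured in 12 recipient libraries, and ChIP-seq peaks in 39 libraries (23 H3K27ac, 12 H3K4me1, 4 HNF4a). The authors aligned RNA reads to mm9 with STAR 2.5 and deposited raw counts per gene from featureCounts 1.5.0-p1, with no normalization. They aligned ChIP-seq reads with Bowtie 0.12.8, kept unique reads, removed duplicates with Picard 1.110 and called histone peaks with SICER (200 bp windows) and HNF4a peaks with HOMER. The deposited lists hold peak positions only, with no count, height or p-value, so their depth is unknown. Input libraries were not used here.

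The complement genes and all lists were chosen with earlier results of these data known. Counts were tested with edgeR 4.0.16 in R 4.3.3 (TMM, filterByExpr, quasi-likelihood F-test, 4 groups in 1 fit, Benjamini-Hochberg over all genes tested). DESeq2 1.42.0 was the alternative. The labels do not say that replicates were separate mice, so p-values measure the spread between libraries. log2 CPM used a prior count of 2. Peaks were merged where they shared 1 bp or more. Annotation was GENCODE vM1 on mm9, and promoters came from RefSeq on GRCm38.p6. Genes named beside the 8 were to be other complement genes past an adjusted p of 0.05 (there were 0), and the 2 nearest genes by Pearson's r. Permutation tests used numpy 2.4.6 in Python 3.11.15, with adjustment by statsmodels 0.14.6, and sequences were read with pysam 0.24.0. The RNA fits and the permutation test were tried on simulated data, and the other steps were not. Alternatives covered scaling, filtering, the tool, a replicate block, window size and each library left out in turn. Some results for single genes are not reported here.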

Additional observations from a re-analysis of the deposited data

How the results depend on the processing

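Differences of single complement genes moved by more than the spread between replicates in 41 recomputed values, all with the mesothelium covariate, without HFDLFB 1, HFDLFB 2 and LFDLFB 3 together, or without LFDLFB 3. The number of the 8 genes called in HFDHFB against HFDLFB was 2 with DESeq2, 1 with edgeR at an unadjusted p of 0.001 and 3 with DESeq2 at that limit, which was chosen after seeing the data. The same settings called 2, 1 and 3 of the other complement genes, and 1 in the interaction with DESeq2 at 0.001. Genes called over the whole table came to 80, 14 and 167 in HFDHFB against HFDLFB (12 without HFDLFB 1 and 2 and LFDLFB 3, which leaves 1 HFDLFB library, assumed to vary like the other groups), 0, 1 and 27 in LFDHFB against LFDLFB, 126, 44 and 177 in HFDHFB against LFDHFB, 9, 9 and 71 in HFDLFB against LFDLFB (8 without these libraries), and 72, 19 and 173 in the interaction (2 without them). With edgeR, leaving out each single library called 0 of the 8 genes at an adjusted p of 0.05. DESeq2 was not run with libraries left out.

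The replicate numbers did not pair the libraries: deviations of same-numbered libraries correlated at −0.59 to 0.45, over 0.1 in 6 of 18 pairs. With a replicate block, 0 of the 8 genes were called, and C3 stood at −3.3, C2 at −2.58, Serping1 at −1.46, C4b at −1.32 and Cfb at −0.65 in HFDHFB against HFDLFB.

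For H3K4me1 at C2 and Cfb, the difference scaled to the genome-wide covered length was −4.63 points (exact permutation test, unadjusted p = 0.03), and single libraries left out gave −5.36 to −3.74 (p = 0.015 to 0.1 by the same permutation test), with p under 0.05 without HFD male 3, HFD female 3 or LFD female 2. At C1q they gave −0.642 to 3.01, the sign turning without HFD male 3. For H3K27ac between donors, C3 without extension of the locus gave 0.248, and C2 and Cfb ranged from −2.31 to 3.38, turning negative without 4 single libraries (−2.31, −0.798, −0.268 and −0.102). Between diets of recipients, C3 scaled to the covered length gave −3.67 (exact permutation test, unadjusted p = 0.02) and with 25 kb on either side −0.382 (p = 0.725 by the same permutation test), and C2 and Cfb gave 3.19 with that scaling (p = 0.18). Single libraries left out gave −3.25 to −1.96 at C3 and 3.01 to 8.69 at C2 and Cfb, with an unadjusted p under 0.05 at C3 without HFDHFB 2 or LFDHFB 2 and at C2 and Cfb without HFDHFB 1 or LFDLFB 1. The causes were not tested. The unknown depth of the peak lists limits every statement on an absent peak.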
